A study of Mus musculus with 12 samples.

Results

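The genes described here encode the proteins of the mitochondrial ribosome, taken as every entry of the deposited count table whose symbol begins with Mrpl or Mrps followed by a number. The rule found 77 of the table's 24421 entries, 50 for proteins of the large subunit, 26 for proteins of the small subunit, and Mrps36. That last gene carries a ribosomal name, but its product is known as a component of the 2-oxoglutarate dehydrogenase complex. All 77 passed the filter on low counts, so the tested genes are the whole set.

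The data are messenger RNA levels in the tibialis anterior, a fast hindlimb muscle, of 6 C57Bl/6 mice (WT) and 6 mdx/mTR mice, every animal a male of 4 months. Mice with the mdx mutation lack dystrophin, a protein under the fibre membrane encoded by Dmd, and mTR stands for the RNA of mouse telomerase, listed as Terc. The mdx/mTR strain is a mouse model of Duchenne muscular dystrophy in which the lack of dystrophin is combined with a telomerase deficiency. The labels give neither the zygosity nor littermate status, so the comparison is between the strains as labelled, and the p-values measure the spread between these mice. In whole muscle, fewer cells of a type and less RNA per cell cannot be told apart.

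Mitochondria translate the few proteins encoded by their own DNA, all of them parts of the respiratory chain or of ATP synthase. The RNA of their ribosomes is mitochondrial, but the ribosomal proteins are all made from nuclear genes and imported. The large subunit forms peptide bonds and releases the chain at the inner membrane, and the small subunit binds the messenger RNA and decodes it. In both subunits some proteins descend from bacterial ribosomal proteins and others were added in the mitochondrial lineage. Fast glycolytic muscle such as the tibialis anterior holds fewer mitochondria than slow muscle.

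Library totals ran from 36903560 to 40981012 counts in WT muscle and from 35136327 to 60330410 in mdx/mTR. Dmd was at 228 to 244 CPM in WT muscle and 35.2 to 56.4 in mdx/mTR (CPM, the count scaled to a common library size by TMM, the trimmed mean of M-values). Terc gave 2 counts in 1 WT library and 0 in the other 11, below what could test that label. Muscle fibre markers were abundant in every library, summing over 8 genes to 157145 to 183010 CPM in WT muscle and 117839 to 162895 in mdx/mTR, with 3 of 8 lower. Other cells' markers moved as well: 8 of 8 macrophage genes were higher in mdx/mTR (summed 81.5 to 138 CPM in WT, 237 to 667 in mdx/mTR), as were 6 of 6 fibroblast genes (870 to 1593, then 2226 to 4434) and 4 of 6 satellite cell genes, with 1 of 6, Cdh15, lower, while 4 of 6 endothelial genes were lower (527 to 679, then 407 to 517). None of these lists was at 0 in every library, and the part of these shifts in the results on ribosomal protein genes was not tested.

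Of the 77 genes, 27 were lower in mdx/mTR muscle, 0 were higher and 50 did not pass the test (edgeR quasi-likelihood test, adjusted p below 0.05 over 13937 genes). Among all genes tested, 23.4% were lower and 25% were higher by the same rule. Without adjustment, 32 of the 77 were lower and 0 higher at p below 0.05 (edgeR), against 3660 and 3959 of all 13937 genes tested. The median log2 fold change was -0.10 over the 77 genes and 0.01 over all genes tested, and 64 of the 77 values were negative against 48.2% of all genes. By separation of the mice, 16 of the 77 had every mdx/mTR mouse below every WT mouse (12.6% of all genes tested did) and 0 had every mdx/mTR mouse above (12.6% did).

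The changes were small beside the study's range. All 77 genes stayed within a 1.5-fold change in either direction, while log2 fold changes of all genes tested ran from -5.44 to 7.81. Among the 27 genes called lower, the fall in the mean level ran from 9.10% for Mrpl32 to 26.8% for Mrps18b, with a median log2 fold change of -0.23. The genes varied little between mice, with a median coefficient of variation of 5.39% in WT muscle and 7.70% in mdx/mTR. The weakest call was Mrpl4 at an adjusted p of 0.0407, and the closest gene outside the threshold was Mrpl47 at 0.0516 (edgeR). The direction of the set depends on how libraries are scaled: the median became 0.05 when library totals alone were used, a scaling that also moved the median of all genes to 0.17.

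**Figure D1:**
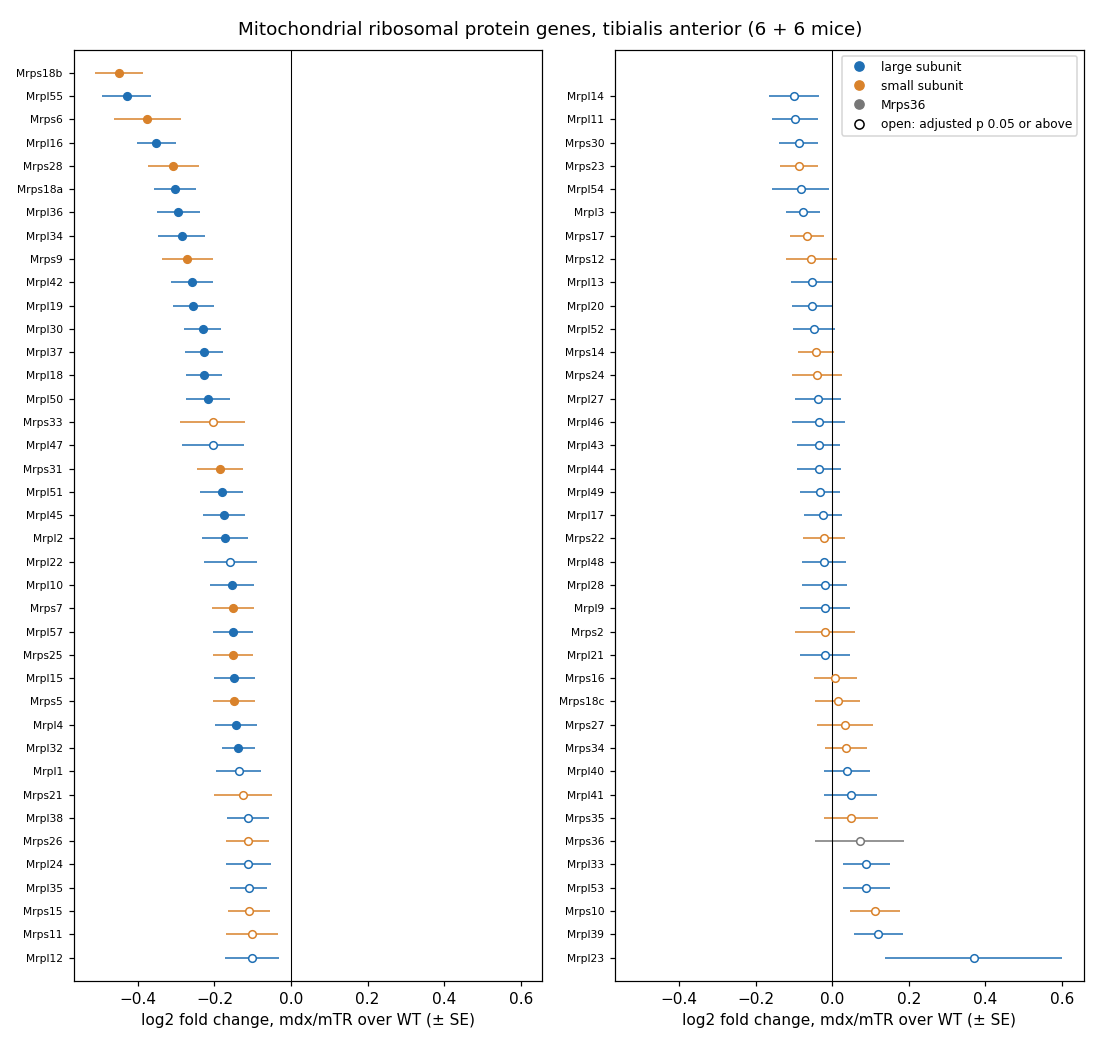
Log2 fold change (mdx/mTR relative to WT) for each of the 77 genes with its standard error (edgeR, TMM scaling), coloured by subunit and filled where the adjusted p is below 0.05. The filled symbols, 27 in all, lie to the left of 0, and the 13 positive values are open; with library totals alone 8 of the 27 are positive.

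Expression per transcript length set the genes of the ribosome apart from each other by a wide margin. The length is that of the annotated transcript chosen for each gene, while counts are per gene. In WT the median was 19.4 CPM per kilobase, with quartiles of 11.01 and 41.2. The highest levels per kilobase were those of Mrpl42 (185 ± 8.25, SD, n = 6), Mrpl33 (90.2 ± 3.85), Mrpl12 (86.2 ± 5.28), Mrps21 (77.7 ± 6.96) and Mrpl30 (68.3 ± 2.89). Mrpl42 stood apart, while from Mrpl33 to Mrpl30 each gene's mean ± SD overlapped that of the next. The chosen transcripts of Mrpl42 and Mrpl33 have 666 and 478 bases, against 3682 and 7326 annotated exon bases. Of their 50-base stretches, 18.8% and 30.3% also occur in other genes. Their ranks are therefore uncertain. At the low end stood Mrpl23 (0.645 ± 0.240), Mrps25 (3.95 ± 0.261) and Mrps33 (4.07 ± 0.437), of which the last pair did not differ beyond their spread. The value of Mrpl23 rests on few counts, as few as 10 in a library, and 76.4% of the 50-base stretches of its transcript also occur in the pseudogene Mrpl23-ps1, so its value is uncertain.

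Across the 77 genes, the log2 fold change had a Spearman correlation of -0.32 with the WT level, -0.05 with transcript length and 0.05 with GC content. These are descriptions over genes measured in the same libraries, and the first shares the WT counts on both axes. The genes lie on 17 chromosomes and no single chromosome holds most of the calls: chromosome 11 has 10 members with 4 called lower, and chromosome 17 has 8 with 4.

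In the large subunit, 19 of 50 genes were lower and 0 higher, with a median log2 fold change of -0.11. Of all genes tested, 23.4% were lower and 25% higher. In 12 of the 50 every mdx/mTR mouse was below every WT mouse, against 12.6% of all genes. Mrpl16, whose bacterial relative sits near the peptidyl transferase centre, measured 44.7, 47.8 and 50.5 CPM in WT (lowest, median and highest mouse) and 33.4, 38.6 and 39.3 CPM in mdx/mTR. Every mdx/mTR mouse was below every WT mouse. Its log2 fold change was -0.35 ± 0.05 (SE; edgeR, adjusted p 9.5e-05). The gene lies at chromosome 19, 11770391 to 11774960 on the plus strand (GRCm38), and no other annotated gene overlaps its exons.

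Mrpl55, the counterpart of bacterial L31, measured 30.5, 34.1 and 35.8 CPM in WT muscle and 23.0, 24.4 and 28.7 CPM in mdx/mTR. The highest mdx/mTR mouse, replicate 3, came closest to the WT range but remained below it. The log2 fold change was -0.43 ± 0.06 (SE; edgeR, adjusted p 0.000113), the largest fall in the large subunit. Mrpl55 lies at chromosome 11, 59202486 to 59206134 on the plus strand.

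Mrpl36, the counterpart of a very short bacterial protein of the large subunit, measured 24.8, 26.4 and 27.98 CPM in WT muscle and 18.7, 21.7 and 23.3 CPM in mdx/mTR. The groups did not overlap, with mdx/mTR replicate 5 lowest. The log2 fold change was -0.29 ± 0.06 (SE; edgeR, adjusted p 0.000946).

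Mrpl18, known to serve in the import of cytosolic 5S ribosomal RNA, measured 62.6, 67.1 and 69.0 CPM in WT muscle and 51.0, 57.0 and 62.0 CPM in mdx/mTR. Mrpl30, a relative of bacterial L30, measured 62.7, 65.5 and 70.6 CPM in WT muscle and 50.8, 57.2 and 60.4 CPM in mdx/mTR. Mrpl19, a relative of bacterial L19, measured 27.5, 28.03 and 30.2 CPM in WT muscle and 21.0, 23.7 and 26.3 CPM in mdx/mTR. In each of these 3 genes every mdx/mTR mouse was below every WT mouse. Their log2 fold changes were -0.23, -0.23 and -0.25, with adjusted p of 0.00152, 0.00157 and 0.00158 (edgeR). With library totals alone these values were -0.07, -0.08 and -0.10 and were not called (edgeR, adjusted p 0.182, 0.140 and 0.134). An opposite-strand gene, Gcfc2, covers 36.0% of the exon bases of Mrpl19, and whether the counting used strand is not given in the sources used here, so reads there cannot be told apart.

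Mrpl42, the highest per kilobase of the chosen transcript, fell from 123 ± 5.49 CPM in WT to 103 ± 8.08 CPM in mdx/mTR muscle (SD, n = 6 each). Its log2 fold change was -0.26 ± 0.06 (SE; edgeR, adjusted p 0.00182), with no overlap. Mrpl34 and Mrpl37 also fell without overlap, by 0.29 and 0.23 on the log2 scale (edgeR, adjusted p 0.00191 and 0.00197). With library totals alone Mrpl42 (-0.10; edgeR, adjusted p 0.0621), Mrpl34 and Mrpl37 were not called. Mrpl45, which anchors the ribosome to the inner membrane near the site where new chains are inserted, fell less, from 56.3 ± 2.72 to 49.8 ± 3.73 CPM, with a log2 fold change of -0.18 (edgeR, adjusted p 0.0168). Its groups overlapped. Mrpl10, the stalk protein that carries Mrpl12, fell by 0.15 on the log2 scale (edgeR, adjusted p 0.0367), and Mrpl32, a protein that must be cleaved by the m-AAA protease before it joins the large subunit, fell by 0.14 (0.0181). With library totals alone the values of Mrpl10 and Mrpl32 were 0.001 and 0.02. Mrpl10 was no longer called without WT replicate 2, 3 or 5 or mdx/mTR replicate 1, 5 or 6 (edgeR, adjusted p up to 0.0779) or with upper quartile scaling. Mrpl32 was no longer called with the replicate block (0.0525) or upper quartile scaling (0.0755), and Mrpl45 with upper quartile scaling (0.0572).

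Several large subunit genes did not pass the test. Mrpl12, the stalk protein that is also reported to bind the mitochondrial RNA polymerase, measured 103, 116 and 121 CPM in WT muscle and 95.4, 104 and 128 CPM in mdx/mTR. Replicate 2 of mdx/mTR lay above all WT mice and the other 5 lay between 95.4 and 107. Its log2 fold change was -0.10 ± 0.07 (SE; edgeR, adjusted p 0.244), and without that mouse it was -0.17 (called lower) with an adjusted p of 0.0207. Mrpl11, the partner of the stalk base, had a log2 fold change of -0.10 (edgeR, adjusted p 0.203), and Mrpl3 and Mrpl44, which carry known disease mutations in human cardiomyopathy, had -0.08 and -0.03 (0.173 and 0.654). Mrpl41 stood at 0.05 (0.590) and Mrpl33 at 0.09 (0.245). The largest positive value, 0.37 ± 0.23 for the scarce Mrpl23, did not pass (edgeR, adjusted p 0.203). Without WT replicate 3 it was 0.58 and called higher (0.0376).

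**Figure D2:**
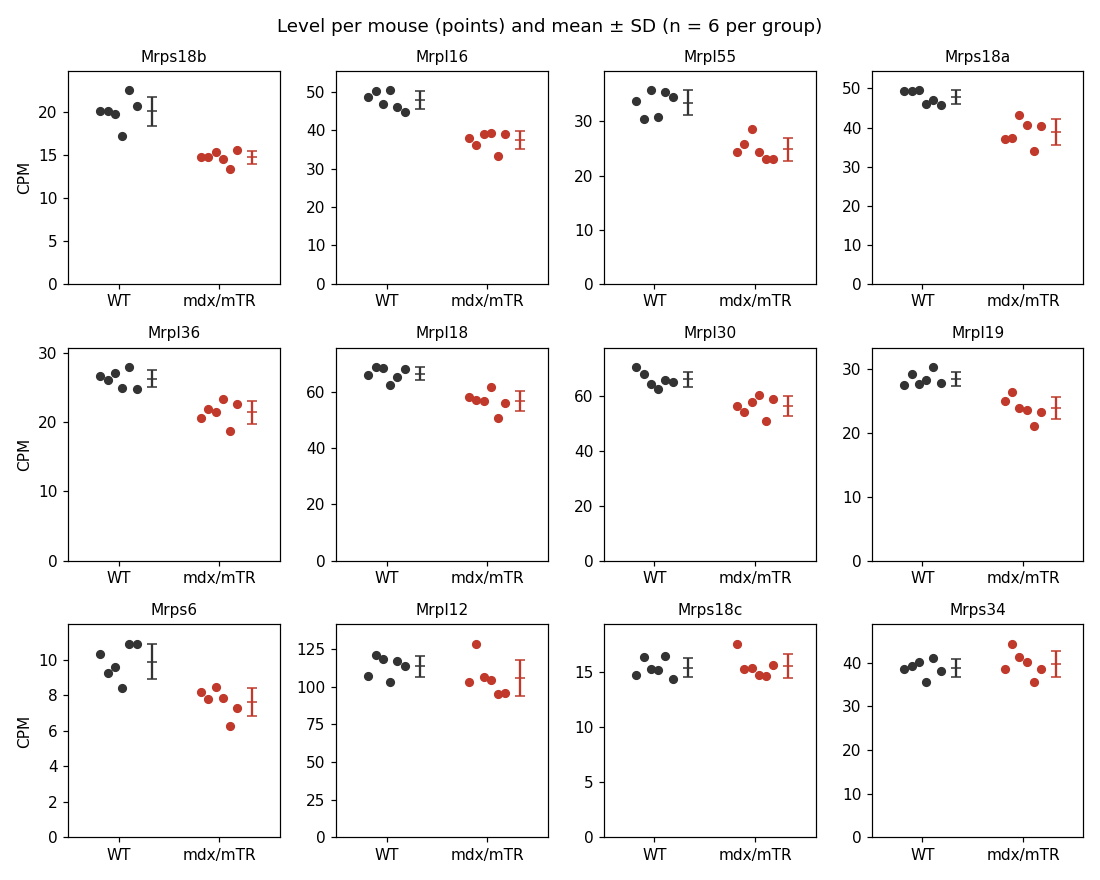
CPM (TMM scaling) of 12 genes in each mouse, with the group mean and SD beside the points (n = 6 per group) and each axis starting at 0. The groups are separate for the first 8 genes, from Mrps18b to Mrpl19, and overlap for Mrps6, Mrpl12, Mrps18c and Mrps34.

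In the small subunit, 8 of 26 genes were lower (30.8%, near the 23.4% of all genes) and 0 higher (25% of all genes). The median log2 fold change was -0.09. In 4 of the 26 every mdx/mTR mouse was below every WT mouse, also near the 12.6% of all genes. The difference between the subunits was not tested. Mrps28, a relative of bacterial S1, fell from 44.7 ± 3.10 CPM in WT to 36.1 ± 3.32 in mdx/mTR muscle (SD, n = 6 each), with a log2 fold change of -0.31 ± 0.07 (SE; edgeR, adjusted p 0.0018) and no overlap. Mrps9, a relative of bacterial S9 in the head of the subunit, fell from 33.6 ± 2.28 to 27.9 ± 2.55 CPM, with a log2 fold change of -0.27 ± 0.07 (SE; edgeR, adjusted p 0.00426), also without overlap. Mrps9 was not called with library totals alone.

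Mrps6 measured 8.41, 9.96 and 10.9 CPM in WT muscle and 6.24, 7.81 and 8.48 CPM in mdx/mTR. Only the edges of the groups met, with the highest mdx/mTR mouse just above the lowest WT mouse. The log2 fold change was -0.38 ± 0.09 (SE; edgeR, adjusted p 0.00308). Its transcript shares 32.2% of its 50-base stretches with Slc5a3 and Gm49711, which overlap it on the same strand, so its value is uncertain.

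Mrps7 and Mrps5, relatives of bacterial proteins of the head and the messenger RNA entry site, fell by 0.15 each on the log2 scale (edgeR, adjusted p 0.0328 and 0.0372), and their values were 0.002 and 0.006 with library totals alone. Mrps7 was no longer called without WT replicate 1, 2 or 5 or mdx/mTR replicate 5 or 6, with the replicate block or with upper quartile scaling. Mrps5 was no longer called without WT replicate 1, 2 or 5 or mdx/mTR replicate 3, 4 or 5, with no filter, with GC and length offsets or with upper quartile scaling. With a mouse left out, the edgeR adjusted p reached 0.0706 for Mrps7 and 0.0793 for Mrps5. Other members of the small subunit did not pass the test. Mrps12, the relative of the bacterial accuracy protein S12, had a log2 fold change of -0.06, Mrps22 and Mrps16, both known from human respiratory chain deficiency, had -0.02 and 0.01, and Mrps27 and Mrps34 had 0.03 and 0.04. The adjusted p of these 5 genes ran from 0.520 to 0.913 (edgeR). Mrps36, which is no ribosomal protein, had 0.07 ± 0.12 (SE; edgeR, adjusted p 0.643).

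Mouse cells hold 3 relatives of bacterial S18, which occupy different places in the ribosome. Mrps18c holds the position of the bacterial protein, Mrps18b is a separate small subunit protein, and the product of Mrps18a is found in the large subunit despite its name. Mrps18b had the largest fall of the 77 genes and Mrps18c had a value near 0. The windows around their start sites are shown because their levels moved apart, each from 170 bases before to 30 bases after the RefSeq start (GRCm38.p6), 5′ to 3′ on the gene's strand. Capitals mark matches to the motif letters described with the promoters. The window of Mrps18b is chr17:35916411-35916610 (minus strand), that of Mrps18a is chr17:46110834-46111033 (plus) and that of Mrps18c is chr5:100798589-100798788 (plus).
Mrps18b: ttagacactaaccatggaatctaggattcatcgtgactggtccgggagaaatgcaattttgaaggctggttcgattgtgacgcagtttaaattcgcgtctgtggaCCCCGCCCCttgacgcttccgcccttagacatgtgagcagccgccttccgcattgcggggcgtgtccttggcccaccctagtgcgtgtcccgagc
Mrps18a: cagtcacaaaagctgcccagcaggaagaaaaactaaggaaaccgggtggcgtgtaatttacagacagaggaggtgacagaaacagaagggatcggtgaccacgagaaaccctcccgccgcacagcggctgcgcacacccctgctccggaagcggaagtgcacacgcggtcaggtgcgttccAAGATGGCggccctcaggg
Mrps18c: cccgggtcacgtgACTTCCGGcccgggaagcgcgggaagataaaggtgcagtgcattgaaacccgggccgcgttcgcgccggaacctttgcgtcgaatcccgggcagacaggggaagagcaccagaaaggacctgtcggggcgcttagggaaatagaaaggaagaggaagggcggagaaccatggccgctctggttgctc

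Mrps18b measured 17.2, 20.1 and 22.5 CPM in WT (lowest, median and highest) and 13.3, 14.7 and 15.5 CPM in mdx/mTR. All 6 mdx/mTR mice lay below all WT mice. Its log2 fold change was -0.45 ± 0.06 (SE; edgeR, adjusted p 8.08e-05). Mrps18a measured 45.9, 48.1 and 49.6 CPM in WT muscle and 34.0, 38.9 and 43.2 CPM in mdx/mTR, again without overlap, with a log2 fold change of -0.30 ± 0.06 (SE; edgeR, adjusted p 0.000609). Mrps18c measured 14.4, 15.2 and 16.5 CPM in WT muscle and 14.7, 15.3 and 17.6 CPM in mdx/mTR. Its groups overlapped almost wholly, and its log2 fold change was 0.01 ± 0.06 (SE; edgeR, adjusted p 0.854).

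A ratio of counts within a mouse does not depend on library scaling. The log2 ratio of Mrps18b to Mrps18c was 0.38 ± 0.12 in WT muscle and -0.08 ± 0.10 in mdx/mTR muscle (SD, n = 6 each), so that Mrps18b had the higher count in every WT mouse and the lower count in every mdx/mTR mouse. The difference was -0.46. For Mrps18a to Mrps18c the ratio went from 1.64 ± 0.08 to 1.32 ± 0.16, a difference of -0.32 with no overlap. For Mrps18b to Mrps18a it went from -1.26 ± 0.13 to -1.40 ± 0.08, with overlap. These ratios were chosen because the fold changes had been seen to differ, so they are given as a description with no test. They carry an uncertainty of annotation: 30.9% of the 50-base stretches of the Mrps18b transcript recur in Gm13552 and 30.5% of its exon bases lie opposite Gm16279, and for Mrps18c 22.4% of stretches recur elsewhere, among them in Gm43511 on the same strand.

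By origin, 18 of 47 genes with a bacterial relative were lower, with a median log2 fold change of -0.11, and 9 of 29 genes classed as particular to mitochondria were lower, with a median of -0.08. Mrps18a, an S18 relative by sequence, is counted among these 29, by its place in the large subunit. Mrps18b and Mrps18c are counted among the 47, though only Mrps18c holds the position of the bacterial protein. Both counts stand beside the 23.4% of all genes, and the difference between the classes was not tested. The calls were also counted by how clearly reads can be assigned. Of 48 genes with less than 10% shared stretches and less than 10% exon overlap, 18 were lower with a median of -0.10, and of the other 29, 9 were lower with a median of -0.10.

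The summed level of the 77 genes was 2801 ± 83.9 CPM in WT muscle and 2569 ± 153 CPM in mdx/mTR muscle (SD, n = 6 each). It ran from 2685 to 2882 CPM in WT muscle and from 2278 to 2681 in mdx/mTR, so the groups did not overlap, by a margin narrower than the spread within either. The lowest value belonged to mdx/mTR replicate 5. On a score that weights each gene equally, the mean of log2(CPM + 0.5) less its WT average, this mouse stood at -0.27 while the other 5 mdx/mTR mice lay between -0.13 and -0.04, and 4 of the 6 mdx/mTR mice were below the lowest WT mouse. Replicate 5 also had the lowest summed muscle fibre markers (117839 CPM), the highest summed macrophage markers (667 CPM), the highest fibroblast markers (4434 CPM) and the largest TMM factor (1.16), and the part of these in its score was not tested. Without it, the median log2 fold change of the 77 genes was -0.07 and 21 of them were lower, against 22.2% of all genes.

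Related genes of the mitochondrial expression system were compared in the same fit. Of all genes tested, 23.4% were lower and 25% higher, and 11.2% and 40.2% with library totals alone. Of the 6 tested ribosomal proteins whose symbols fall outside the Mrpl and Mrps names, 1 was lower, with a median log2 fold change of -0.05. That gene was Chchd1 (-0.17; edgeR, adjusted p 0.0264), and Ptcd3 did not pass the test at -0.16 (0.0861), nor did Gadd45gip1 at 0.10 (0.161). Chchd1 was no longer called with the replicate block (0.0571), without WT replicate 1 (0.0545) or 5 (0.0609), with upper quartile scaling (0.0740) or with library totals alone (0.747). Ptcd3 was called lower without WT replicate 1 (0.0483) or mdx/mTR replicate 2 (0.0303). Of 14 genes for mitochondrial translation factors, 7 were lower and 0 higher with a median of -0.16 (3, 1 and -0.0014 with library totals alone). Gfm1, the translocation factor, fell from 173 ± 7.66 to 122 ± 9.24 CPM (a log2 change of -0.51 ± 0.05, SE, with an edgeR adjusted p of 9.79e-06), and Gfm2, the factor that splits spent ribosomes, from 124 ± 5.31 to 85.7 ± 7.82 CPM (-0.53 ± 0.06, 1.24e-05). Guf1, a back-translocation factor, fell by 0.31 on the log2 scale (0.000368).

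Of 26 genes for assembly of the mitochondrial ribosome, 9 were lower and 1 higher with a median log2 fold change of -0.13. Of all genes tested, 23.4% were lower and 25% higher. With library totals alone 2 assembly genes were lower and 7 higher, against 11.2% and 40.2% of all genes. The assembly median was then 0.03 and that of all genes 0.17. Fastkd2, which binds the large ribosomal RNA, had -0.38, Mettl17, of the small subunit, -0.33 and Wbscr16 -0.24 (edgeR, adjusted p 0.00019, 0.00154 and 0.00266), the last not called with library totals alone. Mterf4, which brings an RNA methyltransferase to the large subunit, rose by 0.28 (0.00808). Of 18 genes for expression of mitochondrial DNA, 12 were lower and 0 higher with a median of -0.23 (4, 2 and -0.07 with library totals alone). Among them, Lrpprc, which stabilises mitochondrial messenger RNAs, fell from 192 ± 6.05 to 142 ± 10.1 CPM (-0.43 ± 0.05, SE; edgeR, adjusted p 2.14e-05), Fastk by 0.28 (0.000358) and Tfam, which packages mitochondrial DNA, by 0.21 (0.0126). The transcripts of mitochondrial DNA itself were not analysed here.

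Of 18 genes chosen as measures of mitochondrial content (import, outer and inner membrane, and matrix), 13 were lower and 0 higher with a median of -0.21 (4, 1 and -0.05 with library totals alone). Hspd1, the matrix chaperonin, fell from 107 ± 5.06 to 73.3 ± 3.54 CPM (-0.55 ± 0.05, SE; edgeR, adjusted p 1.3e-06), and Cs, citrate synthase, fell by 0.27 (0.00585). Complex I of the respiratory chain holds several subunits made on these ribosomes. Of 36 genes taken for its nuclear subunits by their Nduf symbols, 15 were lower and 1 higher, with a median of -0.15 (6, 5 and -0.0024 with library totals alone). Symbols alone chose this list, so it takes in Ndufa4, called lower, and Ndufa4l2, not called, whether or not they belong to the complex. Of 78 cytosolic ribosomal protein genes, 3 were lower and 14 higher with a median of 0.10, where 23.4% and 25% of all genes were lower and higher. With library totals alone these were 1 and 48 genes and a median of 0.26. Under that scaling 11.2% of all genes were lower and 40.2% higher, which holds for the other lists here too. Differences between the lists were not tested. On the score per mouse, all 6 mdx/mTR mice were below all WT mice for the translation factors, assembly, mitochondrial DNA expression and content lists, whereas 4 of 6 were for the ribosomal proteins and 4 of 6 for complex I.

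**Figure D3:**
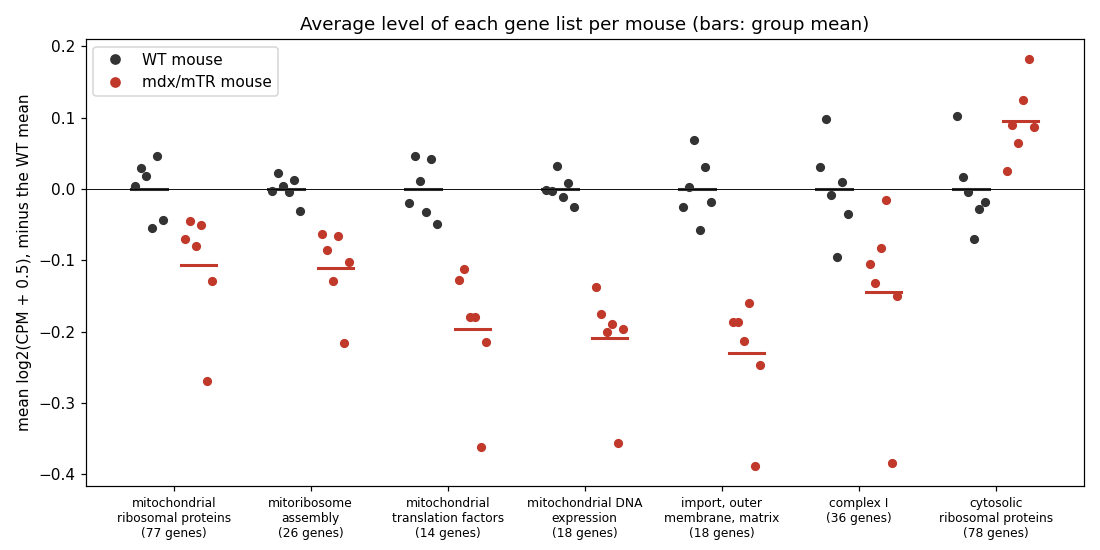
Mean of log2(CPM + 0.5) over each gene list, less its WT mean, for every mouse (dots) with group means (bars). The mitochondrial lists have lower mdx/mTR means, from -0.11 for the ribosomal proteins to -0.23 for the content genes. In each of these lists 1 mdx/mTR mouse, replicate 5, is lowest. The cytosolic ribosomal proteins, whose shared sequence was not examined, have a mean of 0.10. With library totals alone the ribosomal protein and assembly medians are above 0, and below the median of all genes at 0.17.

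Several transcription factors are known to drive genes of the mitochondrial ribosome, among them NRF1, the ETS factor GABP and YY1, with coactivators of the PGC-1 family. Of 10 genes listed as regulators, 5 were lower and 2 higher in mdx/mTR, where 23.4% and 25% of all genes were. Tfam, also counted above with expression of mitochondrial DNA, is 1 of these 5. Ppargc1b fell from 22.9 ± 3.92 to 13.3 ± 2.28 CPM (-0.78 ± 0.13, SE; edgeR, adjusted p 0.000277) and Esrra, an orphan receptor that partners these coactivators, from 154 ± 12.1 to 113 ± 11.9 CPM (-0.45 ± 0.07, 0.000277). Yy1 fell by 0.19 (0.00571, not called with library totals alone) and Gabpa by 0.12 (0.0471), while Gabpb1, the other GABP subunit, rose by 0.27 (0.0126) and Myc rose by 0.61 (0.0208). Nrf1 and Ppargc1a did not pass the test, at 0.09 and -0.07 (0.266 and 0.706).

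Promoter windows of 300 bases (250 before to 50 after the RefSeq start) were found for 68 of the 77 genes and searched on both strands for 5 letter strings. The NRF1 string (GCGCA, any base, GCGC) was in 19.1% of the 68 windows, against 9.9% of 10550 windows of tested genes and 4.8% of all 27025 windows. The ETS string CCGGAAGT was in 16.2% against 7.8% and 4.0%, and the YY1 string AAGATGGC in 17.6% against 4.5% and 2.9%. The SP and KLF string GGGGCGGGG was in 19.1% against 21.5% and 11.6%, and CCAAT in 39.7% against 37.9% and 37.9%. A match is a description of the letters and not a site. Of the 23 genes called lower that had a window, 5 held the NRF1 string, 2 the ETS string and 6 the YY1 string. Among the 45 genes not called these counts were 8, 9 and 6. Where 2 strings overlap, both were counted.

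The window of Mrps18b holds the SP and KLF string on its other strand, that of Mrps18a the YY1 string just after its start and that of Mrps18c the ETS string on its other strand. Mrpl30 and Mrpl45, both called lower, are shown as examples of windows with the NRF1 string, which occurs once in Mrpl30 and 3 times in Mrpl45. They lie at chr1:37890307-37890506 (plus strand) and chr11:97315546-97315745 (plus strand) in GRCm38.p6, with the matches in capitals.
Mrpl30: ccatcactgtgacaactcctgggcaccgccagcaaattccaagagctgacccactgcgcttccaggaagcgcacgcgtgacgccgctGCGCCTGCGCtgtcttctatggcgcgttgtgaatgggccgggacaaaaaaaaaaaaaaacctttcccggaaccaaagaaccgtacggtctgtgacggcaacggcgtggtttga
Mrpl45: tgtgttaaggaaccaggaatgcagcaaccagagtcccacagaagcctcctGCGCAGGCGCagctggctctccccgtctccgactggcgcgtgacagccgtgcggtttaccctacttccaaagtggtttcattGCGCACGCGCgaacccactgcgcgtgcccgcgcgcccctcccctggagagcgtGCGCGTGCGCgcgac

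Many genes of the set start near a coding gene on the opposite strand, and whether they share a promoter was not tested. A coding neighbour on the opposite strand started within 1000 bases for 33 of the 77 genes (42.9%), against 15.2% of 13284 tested coding genes. Of the 30 such neighbours tested, 6 were lower and 4 higher, shares below the 23.4% and 25% of all genes, with a median log2 fold change of -0.08. Mrpl46 and Mrps11 are each other's neighbour and enter as both. Of 12 ribosomal protein genes called lower with a tested neighbour, 1 neighbour was also lower and 2 were higher.

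The neighbour that fell was Ndufs6, a complex I subunit gene beside Mrpl36, whose annotated start lies 29 bases inside Mrpl36, so that the transcripts overlap at their ends. It went from 78.9 ± 5.25 to 67.9 ± 7.55 CPM, a log2 fold change of -0.22 ± 0.07 (SE; edgeR, adjusted p 0.0235). Opposite Mrps18b lies Ppp1r10, the gene of a nuclear regulator of protein phosphatase 1. In GENCODE the annotated starts lie 45 bases apart without overlap. The RefSeq start used for the Mrps18b window lies further upstream than its GENCODE start at 35916389, so whether the transcripts overlap depends on the annotation. Ppp1r10 rose from 12.7 ± 3.27 to 17.96 ± 2.58 CPM, a log2 fold change of 0.50 ± 0.15 (SE; edgeR, adjusted p 0.0111). The log2 count ratio of Mrps18b to Ppp1r10 was 0.69 ± 0.35 in WT muscle and -0.28 ± 0.27 in mdx/mTR muscle (SD, n = 6 each), and the highest mdx/mTR mouse at 0.0876 lay just below the lowest WT mouse at 0.0971. The ratio is a description with no test, since Ppp1r10 was taken as partner after it was seen to rise. Opposite Mrpl30 and 66 bases away, Mitd1 rose from 1.58 ± 0.20 to 2.03 ± 0.21 CPM (log2 change 0.36; edgeR, adjusted p 0.0242). Where such transcripts overlap, reads in the overlap cannot be told apart without strand. Mrpl47, itself not called, faced Ndufb5, which fell by 0.36 (edgeR, adjusted p 0.00176).

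**Figure D4:**
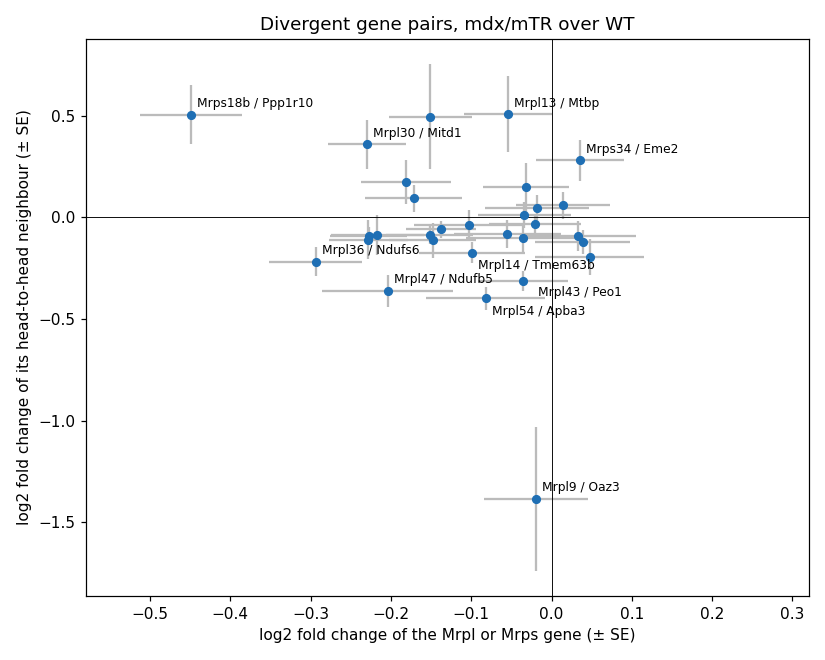
Log2 fold change of each ribosomal protein gene (x axis) and of the tested coding gene that starts within 1000 bases on the opposite strand (y axis), each with its standard error (edgeR, TMM scaling). Named pairs are those whose neighbour has an adjusted p below 0.05, and they fall on both sides of 0 on the y axis, with Mrps18b and Ppp1r10 at the upper left.

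The number of genes called depended on the scaling. Under TMM, median-of-ratios size factors, upper quartile scaling and library totals alone, 27, 28, 15 and 7 of the 77 genes were lower, against 23.4%, 23.8%, 19.4% and 11.2% of all genes, and the median log2 fold change of the set was -0.10, -0.11, -0.06 and 0.05. The median of all genes was 0.01, 0.01, 0.05 and 0.17 under the same scalings, so that the medians differed by 0.12 each time, a distance that a change of scaling leaves nearly fixed by construction. The median of the 77 genes less that of all genes did move with other choices, to -0.08 without mdx/mTR replicate 5 and to -0.15 with no filter on low counts. TMM factors were 0.929 to 0.971 in WT muscle and 0.988 to 1.16 in mdx/mTR and did not overlap between the groups. Genes called higher numbered 0, 0, 1 and 14 of the 77, against 25%, 24.6%, 28.4% and 40.2% of all genes. The genes lower in each of the 22 fits run were 7 in number: Mrpl16, Mrpl36, Mrpl55, Mrps18a, Mrps18b, Mrps28 and Mrps6. How many of all genes were lower in each fit was not counted.

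**Figure D5:**
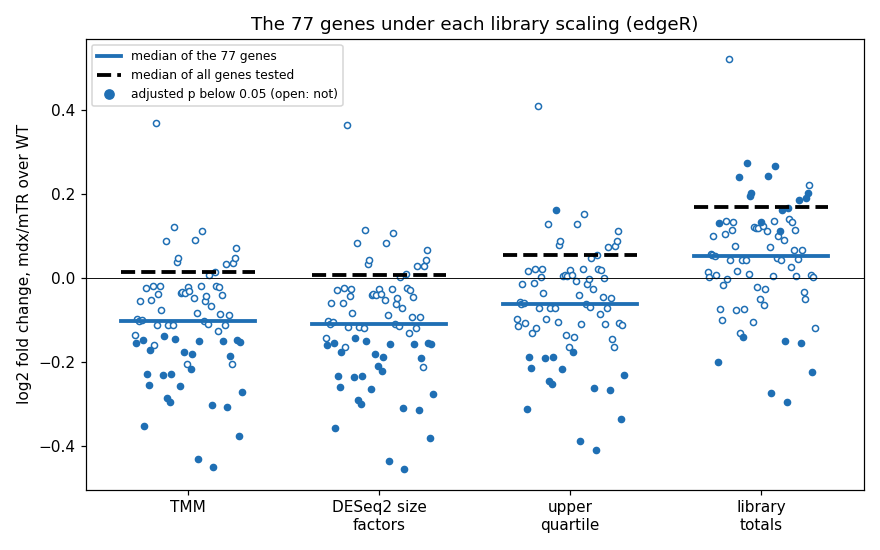
Log2 fold change of the 77 genes (dots, filled where the adjusted p is below 0.05) under each library scaling in edgeR, with the median of the 77 genes (solid line) and of all genes tested (dashed line). Rescaling moves all genes nearly alike, so the lines stay 0.12 apart by construction, while both shift upward with library totals alone, where the median of the 77 genes is 0.05.

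In the authors' deposited table, made from the same counts, 29 of the 77 genes were lower and 0 higher at an adjusted p below 0.05, against 24.7% and 25.4% of the genes with an adjusted p there. All 27 genes called lower with edgeR were among the 29.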

How the data were processed

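RNA of 12 tibialis anterior muscles was sequenced, and the authors deposited whole-number counts per gene symbol for each mouse. The submitters' processing notes name FastQC, STAR, DESeq2 and the mm10 build, with no versions or roles. The counter, the annotation and the strand setting are not given in the sources used here. A second table deposited by the authors gives their comparison of the strains: per the file headers, the mean normalised signal, a log2 fold change with its error, a test score and p-values.

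The deposited counts entered edgeR 4.0.16 (R 4.3.3) unchanged: filterByExpr kept 13937 genes with 99.97% of counts, libraries were scaled by TMM, and a quasi-likelihood fit with group as its only term was adjusted by Benjamini-Hochberg over all of them (threshold 0.05). A standard error is the log2 fold change divided by the square root of F. Alternatives were other scalings, no filter, DESeq2 1.42.0, limma-voom 3.58.1, a replicate block, GC and length offsets, a stricter threshold and each mouse left out. Restricting the set to genes with little shared or overlapping sequence, and leaving mice out of the count ratios, were chosen after seeing the data.

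The genes and lists were chosen with earlier results of these data known. Named genes are those with the smallest p-values or largest changes, genes fixed for their known roles and the 3 smallest p-values of each related list. Other genes named, such as ratio partners, head-to-head neighbours, Cs, Tfam and the remaining regulators, were picked after their values were seen. Gene models, shared 50-base stretches and overlap come from GENCODE M21 (GRCm38, the same assembly as mm10), promoters from RefSeq GRCm38.p6. A count of 3, the limit that a count of 0 allows, is 0.0460 to 0.0837 CPM, for counting error only. Replicates differed by more than sampling noise (chi-square per degree of freedom 9.29 to 122). The fitting step was tested on simulated data.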

Additional observations from a re-analysis of the deposited data

Results flagged for a closer look

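In all, 72 groups of 6 mice (single genes and scores) were searched for 1 mouse standing apart, by the gap to its nearest neighbour over the group's range (Dixon's criterion at its 95% critical value). Chance flags about 1 in 20 groups, or 3.6 here, and 3 were found. For Mrpl12, mdx/mTR replicate 2 was highest at 128.5 CPM while the other 5 ran from 95.4 to 107 CPM. For Mrps18c, mdx/mTR replicate 1 was highest at 17.57 CPM, with the others between 14.7 and 15.7 CPM. For the large subunit score, mdx/mTR replicate 5 was lowest at -0.2683, with the others between -0.13 and -0.05.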

How the results depend on the processing

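The counts of lower genes were 28 with median-of-ratios size factors, 25 with no filter, 28 with DESeq2, 27 with limma-voom and 28 with GC and length offsets, beside 27 (16.4% to 24.6% of all genes under these settings). They moved to 15 with upper quartile scaling (19.4% of all genes) and 7 with library totals alone (11.2%). At an adjusted p below 0.01 they were 15, and the share of all genes at that threshold was not counted. Higher genes, 0 in the analysis described, were 1 with the upper quartile and 14 with library totals alone. The median log2 fold change reversed to 0.0522 with library totals alone, where all genes moved up too.

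Leaving out 1 mouse gave 19 (without WT replicate 5) to 30 lower genes (21% to 23.2% of all genes), 0 to 1 higher genes (1 without WT replicate 3) and a median from -0.1152 to -0.0689 (without mdx/mTR replicate 5). In all 12 such fits 18 genes were lower, and the share of all genes that were was not counted. The differences in the Mrps18b and Mrps18a ratios to Mrps18c ran from -0.4988 to -0.4257 and from -0.355 to -0.2719.

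With the replicate block 21 genes were lower (22.3% of all genes), all among the 27, and 24 with the block and offsets together (23.8%). Same-numbered mice deviated together in 2 of 6 numbers (correlations 0.33 and 0.27, the others -0.14 to -0.02), so the numbers were not taken to pair mice.

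Single values also changed sign. With library totals alone the assembly list median was 0.0261, and the values were 0.0542 for Mrpl12, 0.0253 for Mrps21, 0.0038 for Mrps25, 0.077 for Mrpl3, 0.0014 for Mrpl10, 0.0562 for Mrpl11, 0.017 for Mrpl32, 0.1194 for Mrpl44, 0.0065 for Mrps5, 0.0025 for Mrps7, 0.1006 for Mrps12, 0.1343 for Mrps22 and 0.0658 for Mrps30. With upper quartile scaling Mrpl44 was 0.0065 and Mrps22 0.0184. Mrps16 was -0.0013 with DESeq2, Mrps34 -0.0285 with offsets and -0.0311 with offsets and block, and Mrps27 -0.006 with the latter. Leaving out a mouse moved Mrps16 from -0.0167 to 0.0352, Mrps18c from -0.0237 to 0.0337, Mrps22 from -0.0479 to 0.0057 and Mrps27 from -0.0074 to 0.0839. The cause was not tested. Mrpl23 had as few as 10 counts in a library, and the other 76 genes had 100 or more in every library.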
